A study of Arabidopsis thaliana with 8 samples.

Results

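The 10 genes described here make or regulate suberin and were chosen by name: *GPAT5* (AT3G11430, chr3:3595694-3597952), *CYP86A1* (AT5G58860, chr5:23765791-23768111), *CYP86B1* (AT5G23190, chr5:7803141-7805968), *ASFT* (AT5G41040, chr5:16431304-16433305), *FAR1* (AT5G22500, chr5:7470328-7474133), *FAR4* (AT3G44540, chr3:16123426-16128030), *FAR5* (AT3G44550, chr3:16137576-16142270), *KCS2* (AT1G04220, chr1:1119699-1122786), *KCS20* (AT5G43760, chr5:17585523-17588733) and *MYB84* (AT3G49690, chr3:18427735-18429281), out of 37573 genes in the count table. Coordinates are those of the RefSeq annotation of TAIR10.1. They were read in hypocotyls of Arabidopsis plants that carry *SMXL7pro:SMXL7d53-GR*, in which the *SMXL7* promoter drives a strigolactone-resistant form of the repressor SMXL7 fused to the glucocorticoid receptor (GR), so that its activity depends on dexamethasone. Plants were 4 weeks old and had grown on soil for 3 weeks in short days with 10 h of light and 1 week in long days with 16 h of light. One group was watered with 15 µM dexamethasone (DEX) and the other with the same volume of DMSO (mock), and polyA RNA of the hypocotyl was sequenced 5 h later, with 4 libraries per treatment. The genotype label reads WT, and all 8 libraries come from the transgenic line. No plant without the transgene received DEX, so an effect of DEX itself and one of the fusion protein cannot be told apart. The labels do not say whether libraries of a treatment came from separate plants or pots, and p-values then measure only the spread between these libraries.

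Suberin is a polyester of fatty acids, glycerol and phenolic acids that is laid down with waxes in the walls of the periderm, the outer protective tissue of a thickening hypocotyl or root, and of the root endodermis. It seals these tissues against the loss of water and solutes. Fatty acyl chains are first elongated, then oxidised at their end or reduced to alcohols, joined to glycerol or ferulate, and exported to the wall.

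The libraries held 47976811 to 63996960 counted reads in DEX and 49220724 to 85953231 in mock, and 21289 genes had enough counts to be tested. Over these genes the median log2 fold change of DEX over mock was -0.01 and the median absolute value was 0.12. *SMXL7*, whose count combines the transgene with the resident gene, was at 24703 ± 257 TMM-normalised counts in DEX and 33487 ± 1913 in mock libraries (SD, n = 4 each), a log2 fold change of -0.44 ± 0.05 (SE, edgeR adjusted p = 1.52e-05). This count does not measure the activity of the fusion protein and thus does not check the treatment labels.

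The suberin genes were detected in every library, with 129 to 5115 raw counts each, and all 10 passed the filter on low counts. A gene was called when its Benjamini-Hochberg adjusted p from edgeR was under 0.01, its change was over 1.5-fold in either direction and its mean normalised count was over 50. By this rule 0 of the 10 genes were called higher in DEX, where 4.64% of all tested genes were, and 0 were called lower, where 1.81% were (6.45% in either direction). DESeq2 also called 0 in each direction. With the adjusted p alone, *KCS20* was higher in DEX, which makes 1 of 10 where 10.9% of the tested genes passed, and 0 of 10 were lower where 8.69% passed (19.6% in either direction). At an unadjusted p under 0.05, 2 of the 10 were higher and 2 lower, and over all tested genes 41.8% reached that level in either direction. The median log2 fold change of the 10 genes was -0.07. The 95% interval of the fold change lay within 1.5-fold in both directions for 9 of the 10 genes, as it did for 77.7% of all tested genes.

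**Figure D1:**
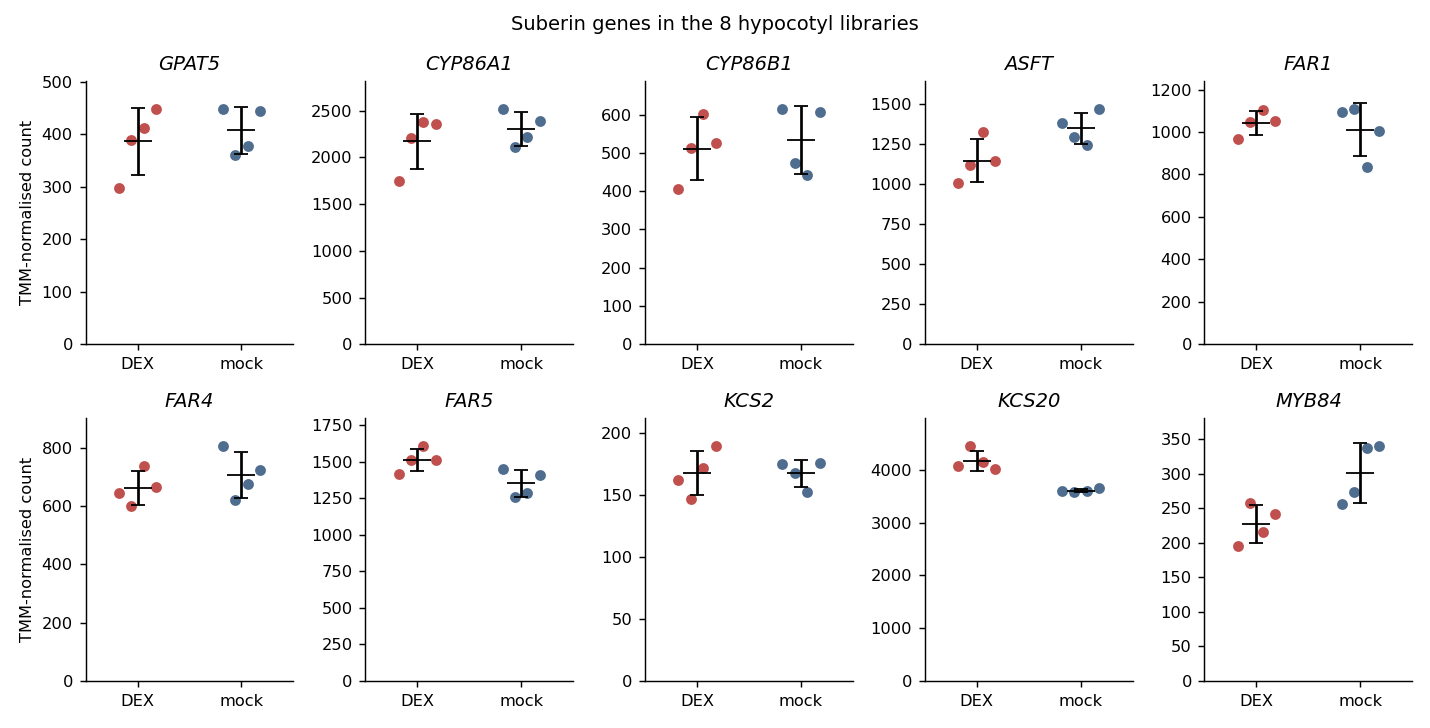
TMM-normalised counts (y axes from 0) of each suberin gene in the 4 DEX libraries (left in each panel) and the 4 mock libraries (right), with points in replicate order and bars for the mean and SD. The DEX and mock points separate for *KCS20*, at 4018 to 4454 against 3581 to 3649 counts, and overlap for the other 9 genes.

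The first step of chain elongation is set by 3-ketoacyl-CoA synthases, and *KCS2* and *KCS20* encode a closely related pair of them with overlapping roles in very-long-chain acids of root suberin. *KCS20* had 4064, 4454, 4145 and 4018 normalised counts in DEX libraries 1 to 4, against 3601, 3581, 3599 and 3649 in mock libraries 1 to 4. Every DEX library was above every mock library, as for 31.3% of all tested genes in one direction or the other, and the mock libraries lay close together. The counts averaged 4170.3 ± 196 in DEX and 3608 ± 29.3 in mock (SD, n = 4 each). *KCS20* thus rose by a log2 fold change of 0.21 ± 0.04 (SE, edgeR adjusted p = 0.00159), with a 95% interval of 0.12 to 0.30, or 8.86% to 22.8% more than in mock. The rise was under the fold threshold of 1.5, and it passed the adjusted p in all 8 fits that left out 1 library.

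*KCS2* had 163, 147, 172 and 189.9 normalised counts in DEX libraries, against 175, 168, 153 and 176 in mock libraries. The 2 groups overlapped throughout. Its change was within the spread of the replicates, at 168 ± 17.8 counts in DEX and 168 ± 10.8 in mock, with a 95% interval of the log2 fold change of -0.23 to 0.22 (edgeR adjusted p = 0.997). The exons of *KCS2* hold 2044 bases, of which 1299 (63.6%) are also covered by other genes, mostly by AT1G04247, a long non-coding RNA gene on the opposite strand. Reads were counted without strand and reads over more than 1 gene were left out, so the counts of *KCS2* come from the remaining 745 bases. AT1G04247 itself was listed at 0 in all 8 libraries. *ASFT*, *FAR1* and *FAR4* share 3.46%, 6.92% and 6.74% of their exon bases with another gene, and the other 6 genes share 0. Over the exons, *KCS2* and *KCS20* matched at 83.6% of 1529 aligned bases, and the longest stretch without a difference is the following run of 53 coding bases. It is shown because a read lying wholly inside it would have more than 1 place in the genome and would not be counted. In *KCS2* it lies at chr1:1120013-1120065 on the minus strand, and in *KCS20* at chr5:17588295-17588347 on the plus strand (TAIR10.1).
KCS2 and KCS20, identical run: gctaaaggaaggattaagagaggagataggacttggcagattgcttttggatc

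The fatty acyl-CoA reductases *FAR1*, *FAR4* and *FAR5* make the primary alcohols of suberin, each with a preference for another chain length. *FAR5* had 1417, 1514, 1607 and 1509 normalised counts in DEX libraries, against 1450.1, 1259, 1283 and 1410.1 in mock libraries. The lowest DEX library lay below the highest mock library, and the log2 fold change was 0.16 ± 0.06 (SE, 95% interval 0.04 to 0.29, edgeR adjusted p = 0.0455), which did not pass. *FAR4* had 644, 599, 738 and 665 counts in DEX libraries, against 806, 621, 676 and 722 in mock libraries. Its log2 fold change was -0.10 ± 0.08 with an interval of -0.28 to 0.08 (edgeR adjusted p = 0.404), and the groups overlapped. *FAR1* had 965, 1045, 1103 and 1052 counts in DEX libraries, against 1093, 1108, 837 and 1005 in mock libraries. The mock libraries spanned the whole DEX range, with a log2 fold change of 0.05 ± 0.08 and an interval of -0.13 to 0.23 (edgeR adjusted p = 0.711). *CER4*, another reductase gene of this family, was called higher in DEX and is described with the wax genes. Of *FAR2*, *FAR6*, *FAR7* and *FAR8*, only *FAR6* had enough counts to be tested. It was at 112 ± 12.5 counts in DEX and 84.4 ± 12 in mock (SD, n = 4 each, edgeR adjusted p = 0.0405).

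The cytochromes P450 *CYP86A1* and *CYP86B1* hydroxylate the chain end of long-chain and very-long-chain fatty acids. *CYP86A1* had 1749.8, 2208, 2383 and 2355 normalised counts in DEX libraries, against 2516, 2108, 2219 and 2386 in mock libraries. *CYP86B1* had 404, 512, 602 and 525 counts in DEX libraries, against 614, 472, 443 and 606 in mock libraries. For both genes DEX library 1 was the lowest of all 8 and the other 3 DEX libraries lay inside the mock range. The log2 fold changes were -0.09 ± 0.09 for *CYP86A1* and -0.06 ± 0.14 for *CYP86B1* (SE), with intervals of -0.30 to 0.13 and -0.37 to 0.25 (edgeR adjusted p = 0.536 and 0.782).

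*GPAT5*, an acyltransferase that joins the oxidised chains to glycerol and a marker of the periderm, had 297, 389, 411 and 448 normalised counts in DEX libraries, against 448, 360.1, 379 and 444 in mock libraries. Again DEX library 1 was the lowest of the 8. The log2 fold change was -0.08 ± 0.12 (SE, 95% interval -0.33 to 0.18, edgeR adjusted p = 0.662), and 0.03 without DEX library 1. *ASFT*, the feruloyl transferase that attaches ferulate to hydroxylated chains, had 1004, 1118, 1327 and 1142 counts in DEX libraries, against 1383, 1298, 1244 and 1468 in mock libraries. Only DEX library 3 reached into the mock range. The log2 fold change of -0.23 ± 0.08 (SE, 95% interval -0.40 to -0.06) did not pass, with an edgeR adjusted p of 0.0457. Without DEX library 3 it was -0.31 and passed (edgeR adjusted p = 0.00577).

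*MYB84*, an R2R3 MYB transcription factor expressed in the periderm, had 195, 257, 215 and 241 normalised counts in DEX libraries, against 255, 273, 336 and 339.9 in mock libraries. The highest DEX library was just above the lowest mock library, and no other pair of values crossed. The means were 227 ± 27.4 in DEX and 301 ± 43.4 in mock (SD, n = 4 each), and the log2 fold change was -0.40 ± 0.12 (SE). Its 95% interval of -0.66 to -0.14 reached furthest below 0 among the 10 genes and crossed the fold limit, while the edgeR adjusted p of 0.0211 did not pass. Leaving out 1 library at a time gave adjusted p-values between 0.0102 and 0.0635. *MYB68*, its closest relative by exon sequence at 87% identity over 438 bases, was at 860.0 ± 80.9 counts in DEX and 896 ± 91 in mock (edgeR adjusted p = 0.629).

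The 27 further genes of the suberin pathway include 13 regulators, 7 enzymes and 7 genes of transport to the wall, and 24 of them could be tested. Of these, 3 were higher and 3 lower by the adjusted p alone, where 10.9% and 8.69% of all tested genes were. Called in either direction were 0 of the 24, against 6.45% of all tested genes. The median log2 fold change of the 24 was -0.12. The further pathway genes named here as passing, other than *CER10*, were chosen after their values were seen. Among the regulators 1 of 10 tested was higher and 1 lower by the adjusted p. The log2 fold change was negative for 8 of the 10, with a median of -0.19. At an unadjusted edgeR p under 0.05, 1 regulator was higher and 5 were lower, where 41.8% of all tested genes reached that level in either direction. *NAC046*, which promotes suberin in Arabidopsis roots, averaged 187 ± 28.2 counts in DEX and 125 ± 18 in mock, a log2 fold change of 0.57 ± 0.13 (SE, edgeR adjusted p = 0.00622). *MYB53*, another activator of suberin genes, averaged 251 ± 23.2 in DEX and 326 ± 14.9 in mock, a log2 fold change of -0.37 ± 0.08 (SE, edgeR adjusted p = 0.00452). For both the DEX and mock libraries did not overlap, as for 31.3% of all tested genes in one direction or the other. Each lost its place past the adjusted p in 4 of 8 fits that left out 1 library, with adjusted p-values of up to 0.0222 for *NAC046* and 0.0173 for *MYB53*.

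Among the 7 enzymes, 1 was higher and 2 were lower. Like *KCS20*, *KCS1* encodes a 3-ketoacyl-CoA synthase, and it was higher by 0.30 ± 0.07 on the log2 scale (SE, edgeR adjusted p = 0.00546), losing this in 6 of 8 fits that left out 1 library. The other 3 reactions of each elongation cycle are catalysed by the products of *KCR1*, *PAS2* and *CER10*, which serve waxes and membrane lipids as well as suberin. *KCR1*, the reductase, did not pass, with a log2 fold change of -0.04 ± 0.04 (edgeR adjusted p = 0.552). *PAS2*, the dehydratase, fell by 0.25 on the log2 scale, with 2079 ± 72.7 counts in DEX and 2472 ± 133 in mock (edgeR adjusted p = 0.00132). *CER10*, the enoyl reductase, fell by 0.22, with 3476 ± 117 counts in DEX and 4063 ± 158 in mock (edgeR adjusted p = 0.00123). *PAS2* and *CER10* kept the adjusted p in all 8 fits. *FACT*, a relative of *ASFT* that makes alkyl caffeates of root wax, and *GPAT7* had log2 fold changes of -0.11 and 0.01 and did not pass. Among the 7 transport genes, the half-transporter gene *ABCG1* was higher by 0.25 ± 0.06 (SE, edgeR adjusted p = 0.00538, lost in 5 of 8 fits that left out 1 library) and the others did not pass. *ABCG20* had a log2 fold change of -0.21 (edgeR adjusted p = 0.0123), and *ABCG11*, which also exports cutin and wax, one of -0.04 (edgeR adjusted p = 0.768).

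**Figure D2:**
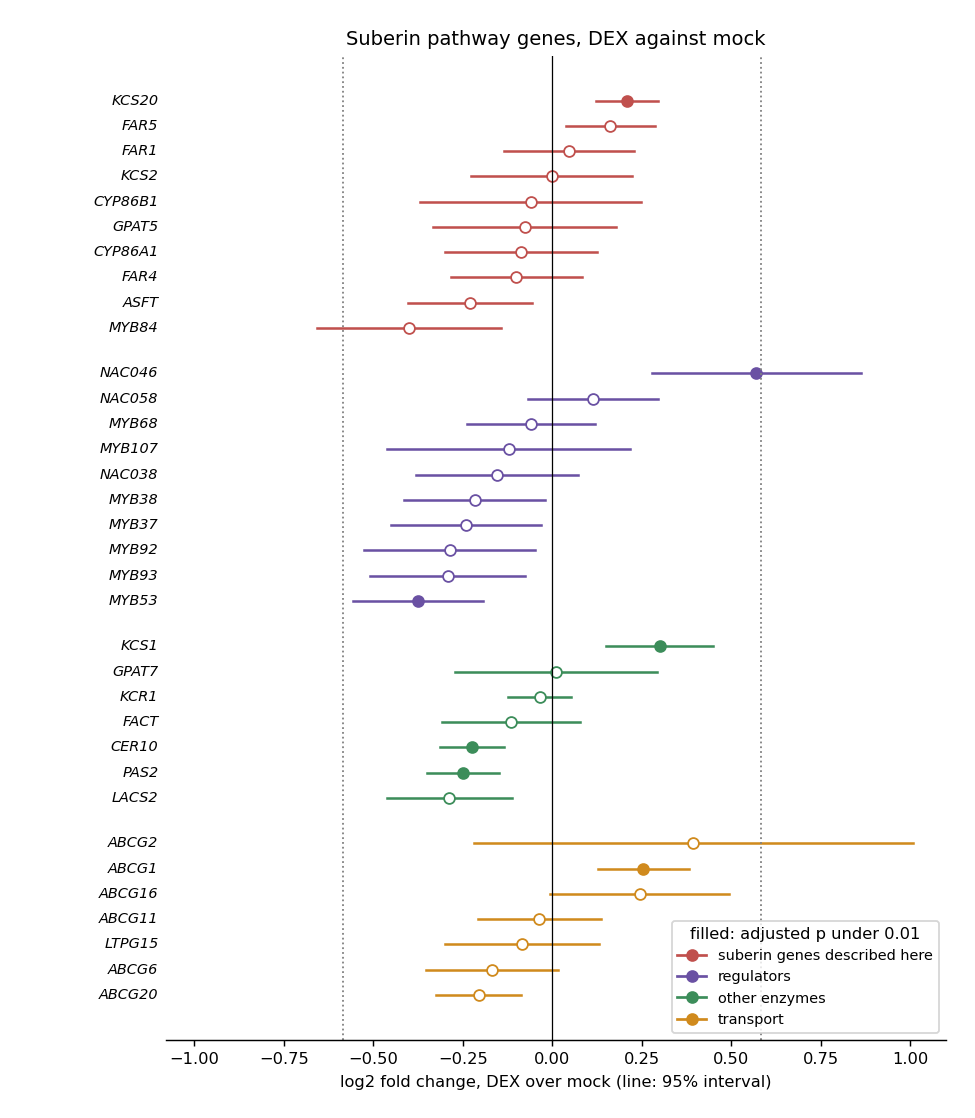
Log2 fold change of DEX over mock (x axis) with its 95% interval for the 10 suberin genes (top) and the 24 further tested genes of the pathway, where filled points passed an adjusted p of 0.01 and dotted lines mark a 1.5-fold change. *KCS20* is the filled point among the 10, and 6 of the 24 further genes are filled, 3 on either side of 0.

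The 2 other lipid barriers of the plant surface share gene families with suberin. Of 12 genes of cutin, the polyester of the shoot epidermis, 1 was called higher and 2 lower, with a median log2 fold change of -0.19. Over all tested genes 4.64% were called higher and 1.81% lower. *CYP86A2*, the cutin relative of *CYP86A1*, averaged 935 ± 68.1 counts in DEX and 575 ± 56.5 in mock, a log2 fold change of 0.70 ± 0.08 (SE, edgeR adjusted p = 1.85e-05). The acyltransferase gene *DCR* had a log2 fold change of -0.66 and *CYP77A6* one of -0.64 (edgeR adjusted p = 0.00169 and 0.00826), and *CYP77A6* lost its call in 6 of 8 fits that left out 1 library. Of 6 tested genes of shoot wax, 5 had a negative log2 fold change, with a median of -0.21, and 1 was called higher. This was *CER4*, a reductase of the *FAR* family, at 74.7 ± 4.46 counts in DEX and 32.3 ± 1.5 in mock (edgeR adjusted p = 3.31e-05). *CER1*, an enzyme of alkane formation named after its values were seen, averaged 889 ± 146 counts in DEX and 1972 ± 577 in mock without overlap, a log2 fold change of -1.14 ± 0.25 that did not pass (SE, edgeR adjusted p = 0.013). Libraries of the 2 treatments did not overlap for 31.3% of all tested genes. Without mock library 3 the change of *CER1* was -1.32 and passed (edgeR adjusted p = 0.000482). The other fits that left out 1 library did not pass, with edgeR adjusted p-values of up to 0.0424.

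Levels can be compared between genes only per length. As FPKM, which divides the counts by exon length and TMM-scaled library size, *KCS20* stood highest at 31 ± 1.46 in DEX and 26.9 ± 0.218 in mock. *CYP86A1* followed at 19.2 ± 2.59 in DEX and 20.4 ± 1.6 in mock, and *ASFT* at 10.4 ± 1.21 in DEX and 12.2 ± 0.89 in mock (SD, n = 4 each). Within either treatment these 3 levels did not overlap with their neighbours in the order. *FAR5* was at 8.4 ± 0.431 FPKM in DEX and 7.5 ± 0.522 in mock, and *FAR1* at 7.58 ± 0.414 in DEX and 7.35 ± 0.903 in mock, and these 2 neighbours overlapped. *FAR4*, *CYP86B1*, *MYB84* and *GPAT5* formed a further group in which neighbours overlapped, with means between 2.84 and 3.72 FPKM in DEX and between 3.36 and 3.97 in mock. In DEX the lowest *FAR4* library, at 3.37 FPKM, lay above the highest *MYB84* library, at 3.22. *KCS2* came last at 1.36 FPKM in either treatment when all its exons were counted as length. On the 745 bases that no other gene covers, a length chosen after the data were seen, it was at 3.72 ± 0.395 FPKM in DEX and 3.72 ± 0.24 in mock, within the range of the group above it.

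**Figure D3:**
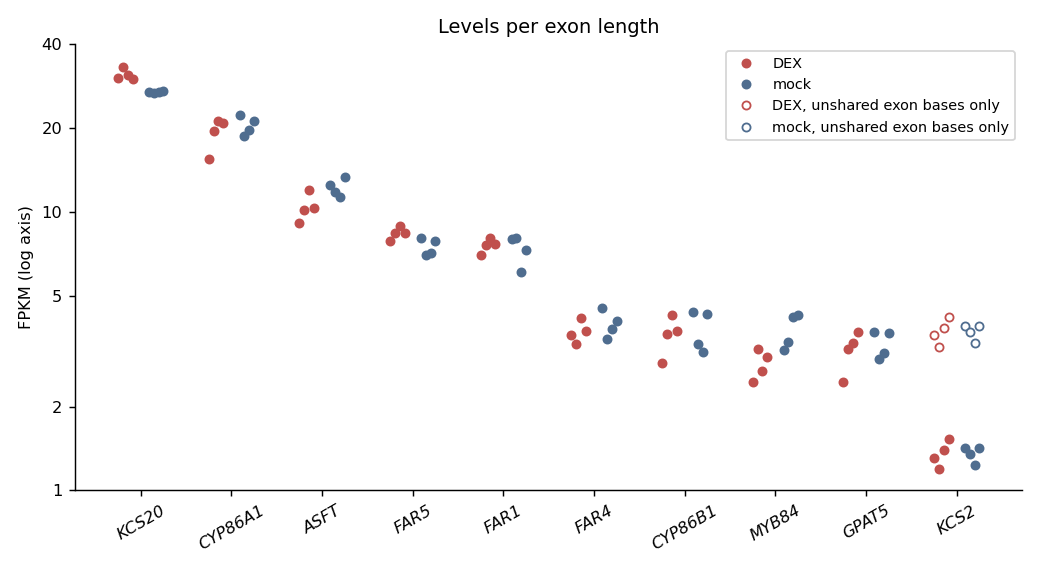
FPKM (log axis) of the suberin genes in each DEX (left) and mock (right) library, ordered by the mock mean, with open points for *KCS2* on its unshared exon bases. *KCS20*, *CYP86A1* and *ASFT* stand apart from each other, and *KCS2* moves from 1.36 to 3.72 FPKM with the length used.

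The question whether related genes responded differently was asked with the log2 ratio of the 2 counts within a library, which does not depend on the scaling of libraries. In 7 such pairs, tested by an exact two-sided permutation of the 8 libraries, the smallest p that 70 arrangements allow is 0.0286. *FAR4* over *FAR5* was at -1.14, -1.34, -1.12 and -1.18 in DEX libraries, against -0.85, -1.02, -0.92 and -0.97 in mock libraries. These groups did not overlap, and the difference of -0.26 ± 0.06 (SE) reached the smallest possible exact permutation p of 0.0286. Adjustment over the 7 pairs made it 0.2, against a threshold of 0.05. A pair that alone reaches the smallest p becomes 0.2 whatever its separation. The adjusted test thus cannot decide whether *FAR4* and *FAR5* responded differently. *KCS2* over *KCS20* differed by -0.21 ± 0.12 and *ASFT* over *FACT* by -0.12 ± 0.05 (SE, both with an exact permutation p of 0.0857, adjusted 0.2). For *FAR1* over *FAR4*, *FAR1* over *FAR5*, *CYP86A1* over *CYP86B1* and *GPAT5* over *GPAT7* the differences lay between -0.11 and 0.14, with adjusted exact permutation p-values of 0.4 to 0.771.

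**Figure D4:**
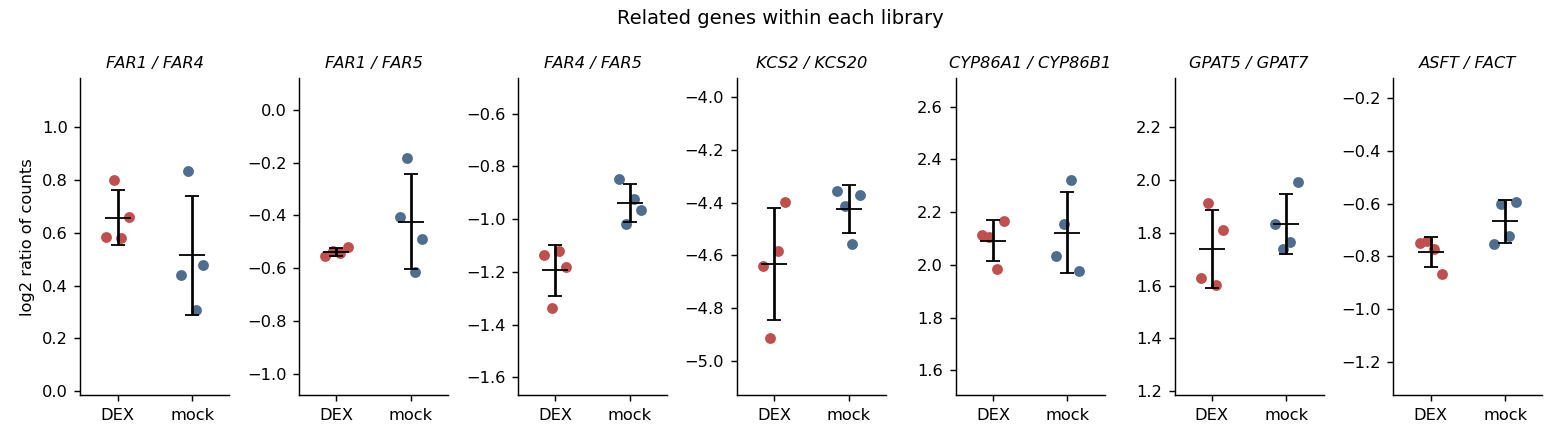
Log2 ratio of raw counts (y axes, each spanning the same range) of 7 pairs of related genes in the 4 DEX (left) and 4 mock (right) libraries, with the mean and SD. The ratio of *FAR4* to *FAR5* is the one whose DEX and mock libraries do not overlap, with a difference of -0.26.

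Within a treatment, several suberin genes deviated in the same direction in the same library. In DEX library 1 all 10 lay below their DEX mean and 7 of them were at their lowest, where 28.1% of all tested genes were, with a median deviation of -0.15 on the log2 scale. The deviations there were -0.36 for *GPAT5*, -0.32 for *CYP86B1* and -0.30 for *CYP86A1*, and -0.04 for *KCS20*. In DEX library 3, 6 of the 10 were at their highest, where 22.4% of all tested genes were. Among mock libraries, 8 lay below their mean in library 2 and 9 in library 3, and 0 in library 4. At their lowest were 5 of the 10 in mock library 2 and 4 in mock library 3. Of all tested genes 25.6% and 28.9% were at their lowest there. *KCS20* varied least, between -0.01 and 0.02 in mock libraries. Stomatal lineage genes, epidermal genes and the regulators of suberin also differed between these libraries. The median deviation of 7 stomatal lineage genes was 0.31 in DEX library 1, 0.28 in mock library 2 and -0.37 in mock library 3. In DEX library 1 the median was -0.19 for 10 suberin regulators, with 7 below their mean. For 7 endodermal genes it was -0.18 there, with 4 below their mean and 3 above, and -0.16 in DEX library 4. For the other suberin lists the median in DEX library 1 was 0.02 for 7 further enzymes, with 3 below their mean. It was -0.05 for 7 transport genes, with 5 below their mean. Over the 24 tested further pathway genes it was -0.06, with 15 below their mean and 9 above. The part of tissue composition in the deviations of the suberin genes was not tested. Without DEX library 1, *KCS20* was higher by 0.22 (edgeR adjusted p = 0.0021), *MYB84* was at -0.33 (edgeR adjusted p = 0.0579), 1 gene passed the adjusted p and 0 were called.

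**Figure D5:**
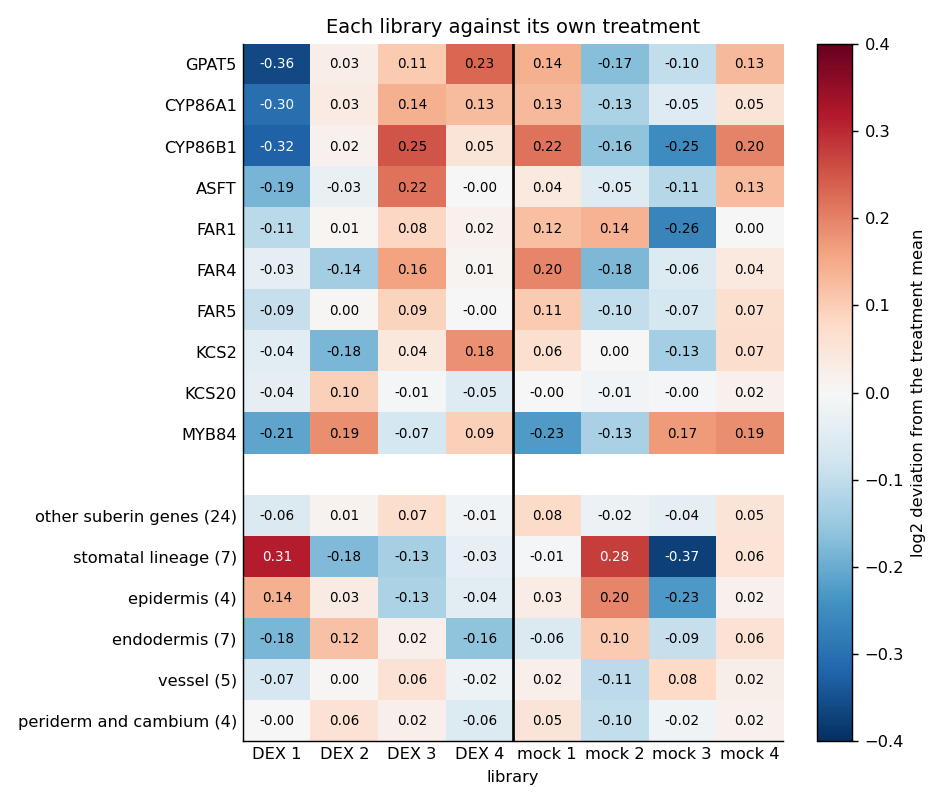
Log2 deviation of each library from the mean of its treatment (colour and numbers) for the 10 suberin genes (above) and as the median over the tested genes of 6 lists (below, number of genes in brackets), with DEX libraries left of the line and mock libraries right of it. All 10 suberin genes are below their mean in DEX library 1, where the stomatal lineage genes are at 0.31.

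In bulk RNA, fewer cells of a type and less RNA per cell cannot be told apart, so markers of the tissues in a hypocotyl were read beside the suberin genes. By the adjusted p 10.9% of all tested genes were higher and 8.69% lower. Of 4 further genes of periderm and cambium, 1 was higher and 1 lower by the adjusted p. These were *KNAT1*, a homeobox gene, at a log2 fold change of 0.22 (edgeR adjusted p = 0.00454), and *WOX4*, a regulator of cambium activity that also marks the periderm, at -0.21 (edgeR adjusted p = 0.00731, named after its value was seen). *KNAT1* lost this in 4 and *WOX4* in 6 of 8 fits that left out 1 library. *PXY*, the receptor kinase of the cambium, did not pass at 0.15 (edgeR adjusted p = 0.0437). The defining endodermal genes *CASP1* and *CASP2* were low, at 11.5 to 42.8 and 2.52 to 14.6 counts in DEX and 23.5 to 42.2 and 12.8 to 19.7 in mock, while *SCR*, an identity gene of the endodermis in roots and shoots, fell by 0.41 (edgeR adjusted p = 0.00121). Of the 7 endodermal genes 0 were higher and 1, *SCR*, was lower by the adjusted p. The log2 fold change was negative for 6 of the 7, with a median of -0.27, and *CASP2* did not pass at -1.30 (edgeR adjusted p = 0.041). The 1 positive gene was *MYB36*, a regulator of the Casparian strip, at 0.04 (edgeR adjusted p = 0.826). All 7 together, with *SCR* at 934 ± 94.2 counts in DEX and 1247 ± 99.3 in mock, summed to 1379 to 1665 counts in DEX and 1831 to 2027 in mock. The 4 epidermal genes summed to 24329.7 to 29099 counts in DEX and 30872 to 40824 in mock, with 2 of 4 lower, and *PDF1* fell by 0.52 (edgeR adjusted p = 0.000638). Of 7 tested stomatal lineage genes 6 were called lower, where 1.81% of all tested genes were. The stomatal list summed to 847 to 1178 counts in DEX and 1733 to 2632 in mock. The 5 vessel genes summed to 21621 to 23234 counts in DEX and 19375 to 22376 in mock, with 4 of 5 log2 fold changes positive. By the adjusted p 0 of them were higher and 1 was lower, the transcription factor gene *VND6*, at -0.45 (edgeR adjusted p = 0.000336, named after its value was seen). Of the 2 phloem genes, *APL* was higher by 0.28 and *SUC2* fell by 0.26 on the log2 scale (edgeR adjusted p = 0.00146 and 0.00173). The 10 suberin genes summed to 10903 to 12703 counts in DEX and 11169.9 to 12341 in mock, ranges that overlap. The largest part of this sum was *KCS20*, the gene that rose, at 4170 ± 196 counts in DEX and 3608 ± 29.3 in mock (SD, n = 4 each). The log2 fold change was negative for 7 of the 10. The part of these other tissues in the values of the suberin genes was not tested.

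*GPAT5* was taken as the reference pattern of the periderm, and the genes most like it were those with the smallest mean absolute difference in log2 counts, centred on each gene's mean, over the 8 libraries. They were *MYB87*, another R2R3 MYB gene, at 0.0239, AT4G24130, annotated with an uncharacterised domain, at 0.034, AT5G44550, which encodes the CASP-like protein CASPL1B1, at 0.0519, AT1G74460, a GDSL-type lipase gene, at 0.0524, and AT5G37690, an SGNH-hydrolase-type esterase gene, at 0.0527. Both treatments entered this choice, so log2 fold changes near that of *GPAT5*, between -0.15 and -0.07, follow from it.

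Promoters were read as the 250 bases before to 50 after the annotated start of each gene in the RefSeq annotation of TAIR10.1. ATAACAA, a motif bound by SMXL6, a relative of SMXL7, occurred on either strand in 13.5% of 27443 promoters and in 2 of the 10 suberin genes, *GPAT5* and *FAR5*. ACCNAAC, the AC element of R2R3 MYB factors, occurred in 17.2% of promoters and in *CYP86B1* and *ASFT*. ACGTGNC of abscisic acid response and TGTCTC of auxin response occurred in 10.3% and 14.2% of promoters and in 0 of the 10. The matched letters do not overlap each other in these windows. The upstream 250 bases are shown for *GPAT5* and *FAR5*, which hold ATAACAA, for *ASFT*, which holds ACCNAAC at 2 places, and for *KCS20*, the gene that rose, with matches in capitals. *GPAT5* lies at chr3:3595444-3595693 (plus strand) with its match at -61 to -55 from the start. *FAR5* lies at chr3:16137326-16137575 (plus strand) with its match at -96 to -90. *ASFT* lies at chr5:16431054-16431303 (plus strand) with matches at -244 to -238 and -224 to -218, and *KCS20* lies at chr5:17585273-17585522 (plus strand) with no match.
GPAT5: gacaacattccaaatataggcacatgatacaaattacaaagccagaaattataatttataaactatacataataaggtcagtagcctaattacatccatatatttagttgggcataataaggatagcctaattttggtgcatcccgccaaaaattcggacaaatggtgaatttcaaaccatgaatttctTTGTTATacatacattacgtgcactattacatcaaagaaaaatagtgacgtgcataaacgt
FAR5: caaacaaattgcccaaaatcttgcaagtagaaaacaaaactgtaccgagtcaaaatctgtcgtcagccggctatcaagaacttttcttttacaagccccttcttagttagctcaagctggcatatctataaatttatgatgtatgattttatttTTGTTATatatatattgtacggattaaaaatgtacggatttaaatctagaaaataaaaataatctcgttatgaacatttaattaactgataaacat
ASFT: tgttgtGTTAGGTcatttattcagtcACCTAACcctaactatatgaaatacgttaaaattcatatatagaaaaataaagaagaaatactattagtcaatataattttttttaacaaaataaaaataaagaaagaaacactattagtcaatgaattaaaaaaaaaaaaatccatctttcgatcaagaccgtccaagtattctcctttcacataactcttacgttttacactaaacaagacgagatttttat
KCS20: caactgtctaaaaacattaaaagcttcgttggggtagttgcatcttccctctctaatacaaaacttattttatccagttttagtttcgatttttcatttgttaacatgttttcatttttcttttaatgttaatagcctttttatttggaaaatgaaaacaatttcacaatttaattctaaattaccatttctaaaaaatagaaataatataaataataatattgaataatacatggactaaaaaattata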

How the data were processed

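The authors mapped the reads with STAR 2.7.8a, retained those that mapped to 1 place, and obtained gene counts with summarizeOverlaps of GenomicAlignments (union mode, strand ignored). The submitters' processing notes name the build TAIR10, and the annotation release is not given in the sources used here. The authors deposited raw counts, used here, and a table normalised with DESeq2 1.34.0, not used here. Each of its 8 sample columns was matched to a label, with 0 left over. Groups and replicate numbers come from the sample labels.

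Counts were tested in R 4.3.3 with edgeR 4.0.16 by its quasi-likelihood F-test (TMM, filterByExpr, robust estimates, no replicate block), with Benjamini-Hochberg adjustment over 21289 tested genes. Normalised counts are counts scaled to the mean TMM-adjusted library size. SE is the absolute log2 fold change over the square root of F, and 95% intervals use the t distribution with the degrees of freedom of the fit. The thresholds, an adjusted p of 0.01, a 1.5-fold change and a mean count of 50, follow the study's methods. Pair ratios used counts + 0.5 and an exact two-sided permutation test. Levels used exon lengths of the RefSeq annotation of TAIR10.1. Exon sequences were aligned by blastn 2.17.0, keeping alignments from 75 bases upward. The biological coefficient of variation over all tested genes was 0.0662, or 6.62%. Counting error alone was 1.82% for *KCS20* and 8.8% for *KCS2* in their libraries of lowest count.

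Named genes are all 10 suberin genes, up to 4 called genes of smallest p per further list or else the 2 of highest mean count, the genes of the pairs, *SMXL7*, and the 5 genes nearest to *GPAT5*. Other names were chosen after their values were seen. The members and lists were chosen with earlier results of these data known. Alternatives were DESeq2 1.42.0, other normalisations, filters and fold thresholds, a replicate block, other added counts and lengths, and each library left out. Unshared exon length and libraries thinned to the smallest total were added after seeing the data. The test script was tested on simulated data.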

Additional observations from a re-analysis of the deposited data

Results flagged for a closer look

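In 104 groups of 4 libraries, 3 had a library that stood apart by more than Dixon's 95% critical value, and chance alone gives about 5% of groups, or 5.2 here. *KCR1*, the elongation reductase, was at 4748 normalised counts in DEX library 4, below the 5038 to 5085 counts of the other DEX libraries. *SPCH*, a stomatal lineage regulator, was at 232 counts in DEX library 1, above the 166 to 176 counts of the other DEX libraries. *SMXL7* was at 25084 counts in DEX library 2, above the 24524 to 24613 counts of the others. None of the 10 suberin genes had such a library in either treatment.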

How the results depend on the processing

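Of 150 recomputed fold changes of the 10 suberin genes, 149 stayed on their side of the adjusted p, and *ASFT* passed without DEX replicate 3, at -0.31 (range -0.31 to -0.17 with 1 library left out), which makes 0 to 1 suberin genes lower by the adjusted p. Without a fold threshold 1 suberin gene was called higher, against 0 with it. With 1 library left out, 0 to 3 of the other suberin pathway genes were higher and 2 to 4 lower, 1 to 2 cutin genes higher and 1 to 5 lower, 0 to 1 wax genes lower, 1 to 4 epidermal genes lower and 1 to 2 endodermal genes lower. With total counts alone 1 other pathway gene was higher and 1 wax gene lower. DESeq2 gave 5 other pathway genes lower, 2 cutin and 2 wax genes higher and 1 wax gene lower. Without a filter on low counts 2 wax genes were higher, and libraries thinned to the smallest total, an alternative chosen after seeing the data, left 1 cutin gene lower. The labels do not say whether same-numbered libraries of the 2 treatments belong together. Their deviations correlated at 0.01, 0.04, 0.07 and -0.01 over genes, which shows no shared effect but cannot decide how the plants were handled. With a replicate block 2 cutin genes were higher and 2 wax genes lower, *KCS1* did not pass (adjusted p = 0.0211), and no suberin gene of the 10 changed its call. Per-length levels of *KCS2* moved with the length used, and the cause of the other changes was not tested. Depth limits the genes of lowest count, since counting error in the library of lowest count was 8.8% for *KCS2* and 8.03% for *MYB84*, above the biological coefficient of variation of 6.62% over all tested genes, and 1.82% to 6.51% for the other 8 suberin genes.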
